A study of Homo sapiens with 8 samples.

Results

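Histone transcripts and SLBP, the protein that binds histone mRNA, were followed in single MDA-MB-231 cells, a human triple-negative breast cancer line, with and without knockdown of ATM and with and without ionizing radiation. Members were all genes whose symbol starts with HIST1H, HIST2H, HIST3H, HIST4H, H1F, H2AF or H3F3, plus SLBP. This took 59 of the 15041 genes listed in the 8 deposited tables. Of these, 47 were genes of the replication-dependent histone clusters, 10 were replacement histones (H1F0, the H2AF genes and the H3F3 genes), 1 was the other linker histone H1FX and 1 was SLBP. The clustered genes comprised 3 for H1, 12 for H2A, 13 for H2B, 9 for H3 and 10 for H4, and no HIST3H gene was listed. There were 4 groups of 2 libraries: ATM knockdown cells 4 h after 5 Gy, untreated ATM knockdown cells, wild-type (WT) cells 4 h after 5 Gy, and untreated WT cells. All groups were the same cell line, grown in the same medium, and the means of the knockdown and the number of clones behind it are not given in the sources used here.

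Clustered histone genes are transcribed mainly while DNA is being copied, and they supply the bulk of the H1, H2A, H2B, H3 and H4 proteins for new chromatin. Their mRNAs normally end in a conserved stem-loop in place of a poly(A) tail, and SLBP binds that stem-loop to direct 3′ end processing, translation and stability. Replacement histones are made through the cell cycle from ordinary polyadenylated mRNAs and are put into chromatin outside replication. ATM is a kinase activated by broken DNA, and one of its substrates in chromatin is the replacement histone encoded by H2AFX.

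The kept cells numbered 363 of 378, and the 15 cells left out all came from knockdown libraries. The libraries held 9321268 to 24256471 counts, and the irradiated WT library 1 was the shallowest. Levels are CPM, counts per 1000000 counts of the kept cells of a library. The libraries are the replicates, and the labels do not say whether those of one group came from separate cultures, so p-values cover only library-to-library spread, possibly of technical origin alone. WT and knockdown libraries carry different title suffixes, and handling that differed between them cannot be told apart from genotype. ATM itself had 13.0 and 14.0 CPM in irradiated knockdown libraries and 13.8 and 33.0 CPM in untreated knockdown libraries, against 28 and 33.2 CPM in irradiated WT and 57.9 and 31.1 CPM in untreated WT libraries. The untreated knockdown library 2 thus lay above an untreated WT library, and the ATM difference did not pass edgeR's quasi-likelihood test with Benjamini-Hochberg adjustment in untreated cells (adjusted p = 0.157) or irradiated cells (adjusted p = 0.109). Of 8 markers of this line, 7 were counted in all 8 libraries, as were 3 of 5 luminal markers (KRT8, KRT18 and GATA3), while 3 of 4 leukocyte markers and 3 of 4 markers of an embryonic kidney line were at 0 in every library. KRT8 had 634 to 1271 CPM, KRT18 536 to 1293 CPM and GATA3 35.7 to 54.8 CPM, and ESR1 was at 0 in every library.

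The stem-loops carried by the annotated transcripts are shown first, because SLBP acts on them and because they mark which mRNAs can end without a poly(A) tail. In GENCODE 29 on GRCh38, a 16-base pattern for the histone stem-loop, with 11 positions fixed and 5 free to be any base, was searched on the sense strand of all transcripts. It was present in 60 of 19969 coding genes (0.30%), of which 32 had a histone prefix named above and 28 did not. Whole transcripts were searched, so a match need not lie at a 3′ end or act as a histone stem-loop. Among the members it was found in 25 of 47 clustered genes, in 1 of 10 replacement genes, and in neither H1FX nor SLBP. Capitals mark the 16 bases of the stem-loop.
HIST1H2AC: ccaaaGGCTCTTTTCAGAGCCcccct
HIST1H4I: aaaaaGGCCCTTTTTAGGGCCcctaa
HIST1H2BD: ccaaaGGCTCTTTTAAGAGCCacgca
HIST1H4H: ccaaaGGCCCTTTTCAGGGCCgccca
HIST1H2AG: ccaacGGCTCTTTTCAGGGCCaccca
H2AFX: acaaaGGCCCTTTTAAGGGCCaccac
The first 4 are at chr6:26124664-26124689 on the plus strand, chr6:27139649-27139674 (plus), chr6:26158582-26158607 (plus) and chr6:26285126-26285151 (minus). HIST1H2AG is at chr6:27133510-27133535 (plus) and H2AFX at chr11:119094893-119094918 (minus). The clustered genes used 5 distinct stem-loops, and the one of HIST1H2AC was shared by 14 genes. Counting only A-T and G-C pairs, 24 of the 25 clustered matches had all 6 base pairs of the stem. HIST1H2AG had 5, with a T opposite a G at the other position. H2AFX was the only replacement gene with the pattern. Only 3 of the 25 clustered genes had an annotated transcript ending within 10 bases of the stem-loop. In 14 of them, every annotated transcript with the stem-loop ran more than 100 bases past it. The shortest such stretch was 1114 bases in HIST1H2AC, 212 in HIST1H4I, 1761 in HIST1H2AG and 821 in H2AFX. Which end the mRNAs had in these cells was not tested.

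The other 22 clustered genes held no match, and for 18 of them the annotated transcript ended at the stop codon, so the window searched held no 3′ region. HIST1H4C was among the other 4, with 51 annotated bases after its stop codon, at chr6:26103876-26104310 on the plus strand. Of the last 20 bases of its transcript, 18 were A. In the 46 other clustered genes, the richest 20-base window held 7 to 20 A with a median of 11, and 1 of them (HIST1H2BG) reached 18 or more, as did 13.5% of coding genes. For the 18 clustered genes annotated to end at the stop codon, no window after that codon could be read, so an A-rich 3′ region there would be missed. Priming of cDNA at A-rich stretches was not tested. Near-identical copies (HIST2H2AA3 and HIST2H2AA4, HIST2H4A and HIST2H4B, HIST2H3A and HIST2H3C), and H2AFZ and H3F3A with 6 named pseudogenes each, carry an added uncertainty from how reads were assigned. So do the 11 clustered members that overlap another gene, H1FX, which overlaps H1FX-AS1, and the replacement genes H3F3B (UNK), H2AFZ (AC097460.1), H3F3A (AL512343.2), H2AFY (C5orf66 and AC026691.1) and H2AFY2 (AIFM2), because use of the strand in counting is not stated.

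HIST1H4C, which encodes histone H4, dominated the clustered counts. It held 86.3% and 88.1% of them in irradiated knockdown, 91.2% and 84.7% in untreated knockdown, 92.0% and 94.7% in irradiated WT and 93.0% and 90.0% in untreated WT libraries. These are 3′ mRNA libraries, and how far mRNAs without a poly(A) tail entered them was not tested. The shares, sums and ratios of clustered genes given here therefore describe counts and not the make-up of histone mRNA. Per kilobase of annotated exon HIST1H4C averaged 7460 CPM, which was 94.6% of the clustered total on that scale. The next members per kilobase were the replacement genes H2AFZ at 659 CPM and H3F3B at 166 CPM, then SLBP at 88.8 CPM and the clustered linker histone gene HIST1H1C at 84.5 CPM. Counts of 3′ libraries need not grow with exon length, so this scale can misplace genes. Without division by length, the next members after HIST1H4C were H2AFZ at 1517 CPM, H3F3B at 1019, H2AFV at 300 and H2AFY at 259 CPM on average. Of the 47 clustered genes, 8 averaged 10 CPM or more, 22 averaged between 1 and 10 CPM and 17 stayed under 1 CPM. In 31 of the 47, a single cell supplied over 15% of all counts of the gene. These included HIST1H1T, HIST1H3G, HIST1H2AE and HIST1H2BL, each counted in only 1 cell.

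The clustered genes together had 1897 and 2861 CPM in irradiated knockdown, 3699 and 2765 CPM in untreated knockdown, 4171 and 5419 CPM in irradiated WT and 4735 and 3022 CPM in untreated WT libraries. The group means were 2379 ± 682, 3232 ± 660, 4795 ± 883 and 3878 ± 1211 CPM in the same order (SD, n = 2 each). Irradiated and untreated libraries overlapped within each genotype, while the irradiated knockdown libraries lay below both irradiated WT libraries. Without HIST1H4C, the other 46 genes summed to 300 ± 56.3, 374 ± 67.8, 311 ± 32.9 and 318 ± 20.5 CPM, and the ranges of these sums overlapped in every pair of groups. The 10 replacement genes summed to 3156 ± 163 CPM in irradiated knockdown, 3701 ± 121 in untreated knockdown, 4240 ± 275 in irradiated WT and 3606 ± 443 CPM in untreated WT libraries. The ratio of clustered to replacement counts was 0.624 and 0.875 in irradiated knockdown, 1.02 and 0.730 in untreated knockdown, 0.941 and 1.34 in irradiated WT and 1.21 and 0.918 in untreated WT libraries. As in any bulk sum, fewer cells expressing a gene and less RNA per cell cannot be told apart in these values.

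**Figure D1:**
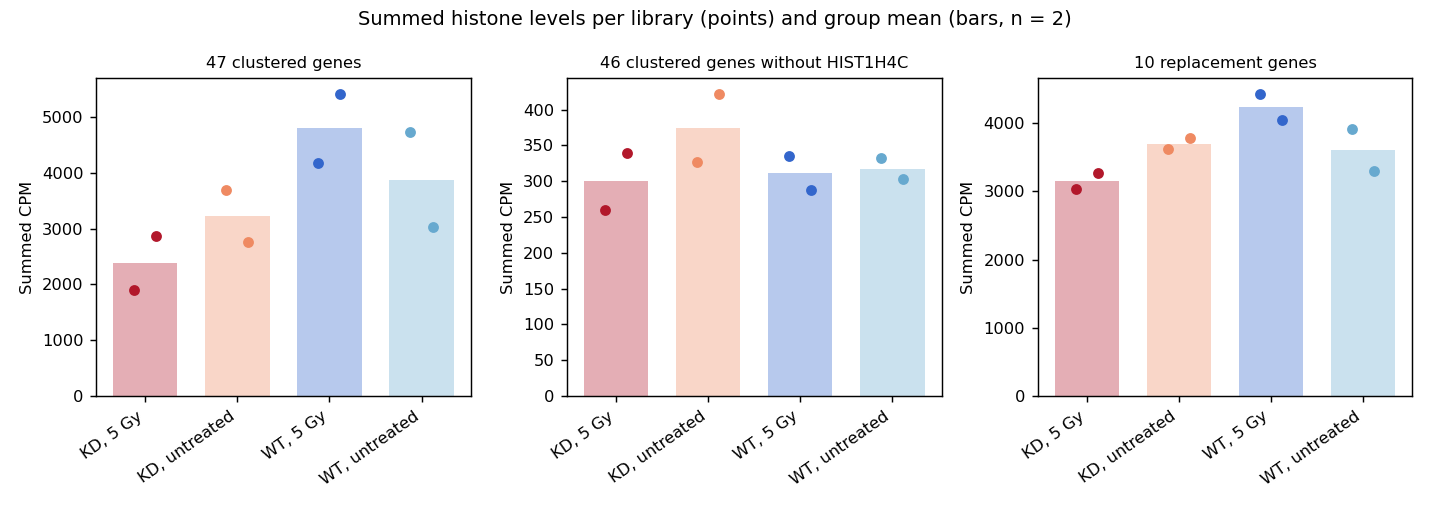
Summed CPM of the 47 clustered genes, of the 46 clustered genes without HIST1H4C and of the 10 replacement genes, with a point per library and a bar at the group mean (n = 2), and KD for knockdown. The irradiated knockdown libraries (1897 and 2861 CPM) are below the irradiated WT libraries (4171 and 5419 CPM) in the first panel, and the second panel, without HIST1H4C, spans only 260 to 422 CPM.

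Gene by gene, 46 of the 59 members passed the filter on low counts and were tested among 12456 genes: 35 clustered genes, 9 replacement genes, H1FX and SLBP. A member that passed the filter only through the group in which it is high had to differ, so class counts describe the tested members and not the class. After irradiation of knockdown cells 1 of 46 members passed (2.17%), against 0.225% of all genes tested, and after irradiation of WT cells 2 passed (4.35%), against 1.65%. Between knockdown and WT, 6 of 46 (13.0%) passed in irradiated cells, against 5.1% of all genes, and 5 of 46 (10.9%) in untreated cells, close to the 9.94% of all genes. For the difference between the irradiation responses of the genotypes, 0 of 46 passed in edgeR's quasi-likelihood test, against 0.185% of all genes. In that comparison 9 of 46 members had an unadjusted p under 0.05, against 9.5% of all genes. DESeq2's Wald test called 3 (SLBP, H2AFZ and HIST4H4), against 1.13% of all genes it gave an adjusted p, and limma on the mean CPM per cell called 0. HIST4H4 had 197 counts in all, from 17 cells, and 0 CPM in both irradiated knockdown libraries. The size of its change is thus set by the absence of counts. The comparisons share libraries, so their results are not independent.

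SLBP rose after irradiation in WT cells. It had 218 and 327 CPM in irradiated WT libraries, against 101 and 104 CPM in untreated WT libraries, and 210 and 174 CPM in irradiated knockdown, against 144 and 163 CPM in untreated knockdown libraries. Both irradiated libraries lay above both untreated libraries in each genotype. The means were 272 ± 77.6 CPM in irradiated WT and 102 ± 2.42 CPM in untreated WT libraries (SD, n = 2 each), a log2 change of 1.43 (SE 0.200, adjusted p = 0.00314 by edgeR's quasi-likelihood test with Benjamini-Hochberg adjustment). In knockdown cells the means were 192 ± 25.9 CPM after irradiation and 153 ± 13.4 CPM without it, a log2 change of 0.33 (SE 0.196, adjusted p = 0.648, edgeR). The response of knockdown minus that of WT was -1.10 on the log2 scale (SE 0.278) and did not pass (adjusted p = 0.187, edgeR). SLBP was not called between knockdown and WT in irradiated cells (log2 change -0.57, SE 0.197, adjusted p = 0.117, edgeR) or in untreated cells (0.53, SE 0.197, adjusted p = 0.109, edgeR). SLBP lies at chr4:1692800-1712555 on the minus strand and overlaps no other annotated gene.

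**Figure D2:**
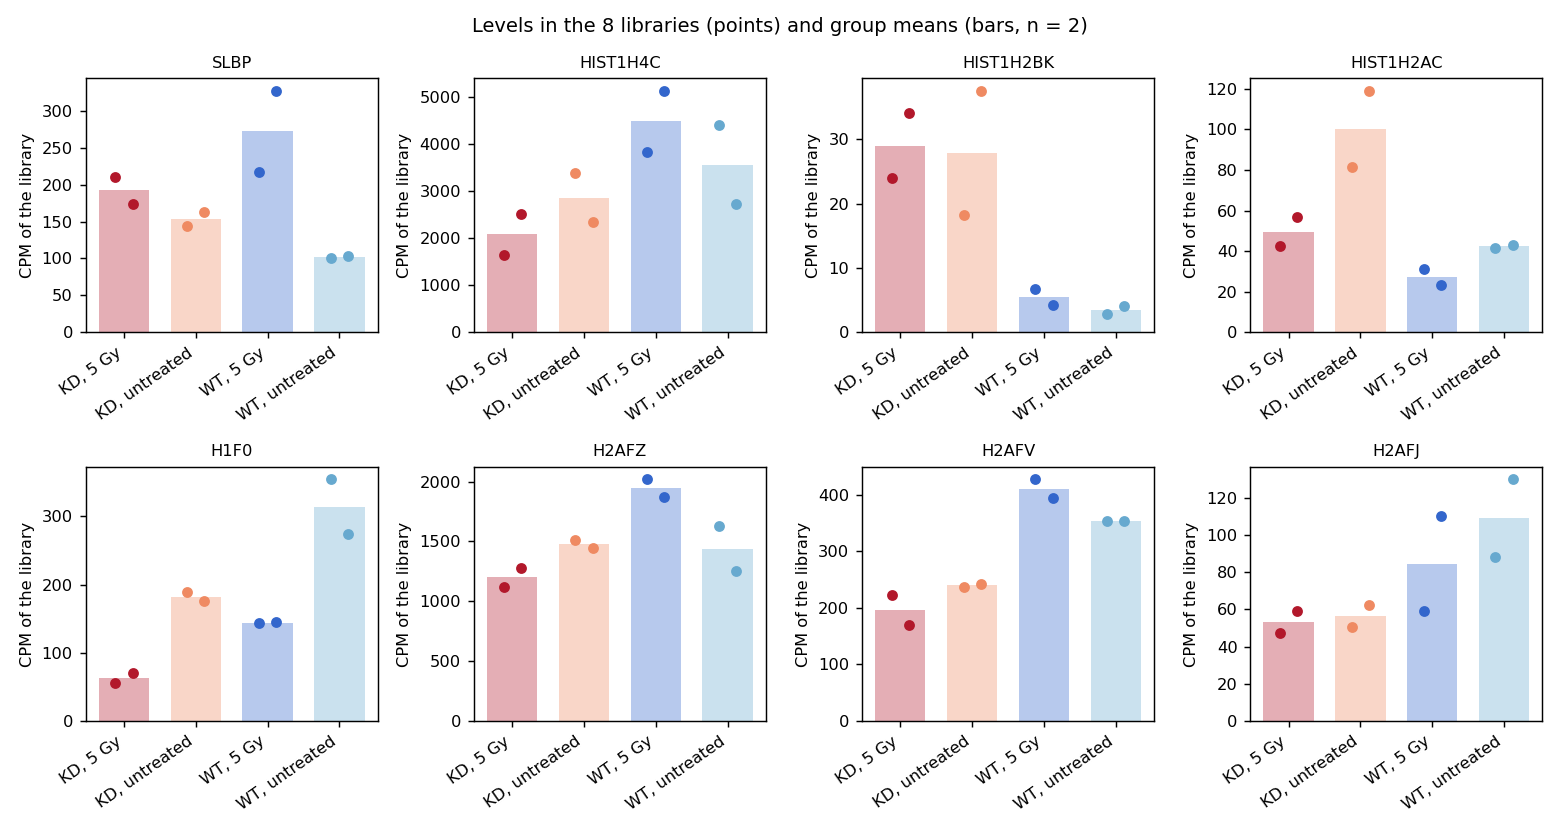
CPM in each of the 8 libraries (points) with the group mean (bars, n = 2) for SLBP, 3 clustered genes and 4 replacement genes that passed the test in a comparison, KD for knockdown. SLBP stands at 218 and 327 CPM in irradiated WT libraries, against 101 and 104 CPM in untreated WT libraries, and H1F0 is lower after 5 Gy in each genotype.

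H1F0, the gene for the replacement linker histone H1.0, which is known to accumulate in quiescent and differentiated cells, fell after irradiation in each genotype. Its levels were 56.5 and 70.5 CPM in irradiated knockdown, against 189 and 175 CPM in untreated knockdown libraries, and 143 and 145 CPM in irradiated WT, against 355 and 274 CPM in untreated WT libraries. No irradiated library reached the lowest untreated library of its genotype. The log2 change was -1.51 in knockdown cells (SE 0.189, adjusted p = 0.00144, edgeR) and -1.10 in WT cells (SE 0.186, adjusted p = 0.0112, edgeR). The knockdown minus WT response was -0.41 (SE 0.261, adjusted p = 0.663, edgeR). H1F0 was also lower in knockdown than in WT, by a log2 change of -1.25 in irradiated cells (SE 0.188, adjusted p = 0.00144, edgeR) and -0.84 in untreated cells (SE 0.185, adjusted p = 0.0094, edgeR). The untreated difference lost its call without untreated WT library 1, which held the highest level (adjusted p = 0.0608, edgeR), and by limma on the mean CPM per cell (log2 change -0.41, adjusted p = 0.274). The gene is a single exon at chr22:37805093-37807436 on the plus strand.

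H2AFZ and H2AFV encode the near-identical H2A.Z proteins, which stand at promoters in place of H2A. H2AFZ had 1119 and 1280 CPM in irradiated knockdown, 1511 and 1449 CPM in untreated knockdown, 2019 and 1875 CPM in irradiated WT and 1630 and 1250 CPM in untreated WT libraries. The irradiated WT libraries were the highest of the 8, and the irradiated knockdown libraries with untreated WT library 2 were the lowest. H2AFZ was lower in knockdown than in WT after irradiation (log2 change -0.77, SE 0.132, adjusted p = 0.00337, edgeR), and without irradiation the change was -0.014 (SE 0.131, adjusted p = 0.968, edgeR). Its log2 changes with irradiation were -0.29 in knockdown cells (adjusted p = 0.528, edgeR) and 0.46 in WT cells (adjusted p = 0.102, edgeR), and their difference of -0.75 (SE 0.186) did not pass (adjusted p = 0.165, edgeR). H2AFV had 222 and 169 CPM in irradiated knockdown, 238 and 242 CPM in untreated knockdown, 428 and 394 CPM in irradiated WT and 355 and 354 CPM in untreated WT libraries. Every knockdown library lay below every WT library. The H2AFV log2 change between knockdown and WT was -1.14 in irradiated cells (SE 0.159, adjusted p = 0.000848, edgeR) and -0.62 in untreated cells (SE 0.158, adjusted p = 0.0213, edgeR). The untreated call was lost without cells above 2 times the median count (adjusted p = 0.0517, edgeR) and without either untreated knockdown library (log2 change -0.62 each, adjusted p = 0.0730 without library 1 and 0.0742 without library 2, edgeR). With irradiation H2AFV gave log2 changes of -0.29 in knockdown and 0.23 in WT cells (adjusted p = 0.634 and 0.551, edgeR), with a difference of -0.52 (adjusted p = 0.474, edgeR).

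H2AFJ, which encodes the replacement histone H2A.J, had 47.3 and 59.1 CPM in irradiated knockdown, 50.7 and 62.6 CPM in untreated knockdown, 59.0 and 110 CPM in irradiated WT and 88.3 and 130 CPM in untreated WT libraries. It was lower in untreated knockdown than in untreated WT cells, by a log2 change of -1.01 (SE 0.294, adjusted p = 0.0412, edgeR), and in irradiated cells the log2 change was -0.74 (SE 0.293, adjusted p = 0.180, edgeR). The untreated call was lost without untreated WT library 2, without untreated knockdown library 1, without scaling of libraries, without the largest cells and in a fit of those 2 groups alone, with adjusted p up to 0.225. Irradiation gave log2 changes of -0.079 in knockdown and -0.35 in WT cells, neither past the threshold (adjusted p = 0.981 and 0.649, edgeR), with a difference of 0.27 (adjusted p = 0.898, edgeR). H1FX, a linker histone gene outside the clusters, had 29.7 and 31.1 CPM in irradiated knockdown, 47.4 and 55.2 CPM in untreated knockdown, 50.6 and 78.9 CPM in irradiated WT and 61.6 and 74.3 CPM in untreated WT libraries. Knockdown was lower than WT in irradiated cells (log2 change -1.16, SE 0.271, adjusted p = 0.0220, edgeR). This call was lost without irradiated WT library 2 (log2 change -0.82, adjusted p = 0.241, edgeR), without irradiated knockdown library 1 (-1.11, adjusted p = 0.132, edgeR) and without irradiated knockdown library 2 (-1.21, adjusted p = 0.0974, edgeR). In untreated cells the H1FX log2 change was -0.46 (adjusted p = 0.311, edgeR), and with irradiation it was -0.74 in knockdown and -0.049 in WT cells (adjusted p = 0.407 and 0.970, edgeR), with a difference of -0.70 (adjusted p = 0.597, edgeR).

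The other abundant replacement genes did not pass in any comparison of the edgeR fit. H2AFX, whose protein is phosphorylated beside DNA breaks, had 105 and 129 CPM in irradiated knockdown, 89.0 and 160 CPM in untreated knockdown, 118 and 128 CPM in irradiated WT and 144 and 95.2 CPM in untreated WT libraries. These ranges overlapped in every pair of groups, and the H2AFX log2 changes ran from -0.14 to 0.068 over the 5 comparisons. H3F3A and H3F3B both encode H3.3, the replacement form of H3. H3F3A had 163 to 250 CPM over the 8 libraries, with log2 changes of -0.041 after irradiation in knockdown cells, 0.025 after irradiation in WT cells, -0.39 between knockdown and WT in irradiated cells, -0.33 in untreated cells and -0.067 for the difference between the responses. H3F3B had 1060 and 1146 CPM in irradiated knockdown, 1087 and 1194 CPM in untreated knockdown, 1250 and 826 CPM in irradiated WT and 881 and 704 CPM in untreated WT libraries. Its log2 changes were -0.040 and 0.42 with irradiation of knockdown and WT cells, and 0.015 and 0.47 for knockdown against WT in irradiated and untreated cells (adjusted p from 0.0995 to 0.985, edgeR), and the difference between the responses was -0.46. H3F3B was called between the untreated genotypes in 6 of 17 alternative settings and with irradiation of WT cells in 1 of 17. H2AFY, the gene of macroH2A1, had 219 to 311 CPM, with log2 changes from -0.34 to 0.11. Of the remaining replacement genes, H3F3C had 4.56 to 13.1 CPM, and H2AFY2 was counted in 1 cell and was not tested.

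Among the clustered genes, HIST1H4C was lower in knockdown than in WT cells after irradiation. It had 1637 and 2521 CPM in irradiated knockdown, against 3836 and 5131 CPM in irradiated WT libraries, with no overlap. Untreated knockdown libraries had 3372 and 2343 CPM and untreated WT libraries 4403 and 2719 CPM, which overlapped. The log2 change between knockdown and WT was -1.17 in irradiated cells (SE 0.231, adjusted p = 0.00805, edgeR) and -0.37 in untreated cells (SE 0.228, adjusted p = 0.349, edgeR). The irradiated call was lost without cells above 2 times the median count of their library (log2 change -0.77, adjusted p = 0.0769, edgeR). Irradiation changed HIST1H4C by -0.45 in knockdown and 0.36 in WT cells on the log2 scale, neither of which passed (adjusted p = 0.608 and 0.527, edgeR), and their difference of -0.81 (SE 0.322) did not pass either (adjusted p = 0.445, edgeR).

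HIST1H2BK and HIST1H2AC, an H2B and an H2A gene, were the members that passed the test as higher in knockdown cells. HIST1H2BK had 23.9 and 34.0 CPM in irradiated knockdown and 18.2 and 37.5 CPM in untreated knockdown, against 6.76 and 4.32 CPM in irradiated WT and 2.84 and 4.11 CPM in untreated WT libraries. Every knockdown library was above every WT library. Its log2 change between knockdown and WT was 2.33 in irradiated cells (SE 0.496, adjusted p = 0.0130, edgeR) and 2.94 in untreated cells (SE 0.505, adjusted p = 0.00181, edgeR). The irradiated call was lost without irradiated WT library 2 (log2 change 2.02, adjusted p = 0.0948, edgeR) and without irradiated knockdown library 2 (2.03, adjusted p = 0.0905, edgeR). HIST1H2BK is annotated at chr6:27146418-27146798 on the minus strand with a transcript that ends at the stop codon. Irradiation changed it by 0.071 in knockdown and 0.68 in WT cells on the log2 scale (adjusted p = 0.992 and 0.583, edgeR), with a difference of -0.61 (adjusted p = 0.835, edgeR). HIST1H2AC had 42.3 and 56.9 CPM in irradiated knockdown, 81.2 and 119 CPM in untreated knockdown, 31.1 and 23.2 CPM in irradiated WT and 41.8 and 43.2 CPM in untreated WT libraries. The untreated knockdown libraries were the highest of the 8. HIST1H2AC was higher in untreated knockdown than in untreated WT cells (log2 change 1.18, SE 0.280, adjusted p = 0.0146, edgeR), but not without untreated knockdown library 2 (0.89, adjusted p = 0.113, edgeR). In irradiated cells the HIST1H2AC log2 change was 0.80 (SE 0.281, adjusted p = 0.125, edgeR), and irradiation gave -1.0 in knockdown and -0.63 in WT cells (adjusted p = 0.213 and 0.332, edgeR), with a difference of -0.38 (adjusted p = 0.825, edgeR).

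HIST1H2BD, another H2B gene, did not pass in any comparison. It had 15.1 and 34.1 CPM in irradiated knockdown, 14.3 and 46.8 CPM in untreated knockdown, 17.4 and 12.2 CPM in irradiated WT and 44.9 and 63.5 CPM in untreated WT libraries. The irradiated WT libraries lay below both untreated WT libraries, with a log2 change of -1.86 (SE 0.507, adjusted p = 0.0862, edgeR), and 9 of 16 alternative settings called it. Its other log2 changes were -0.29 after irradiation of knockdown cells, 0.67 and -0.89 for knockdown against WT in irradiated and untreated cells, and 1.56 for the difference between the responses (adjusted p from 0.290 to 0.934, edgeR). HIST1H1C and HIST1H4I, for linker histone H1.2 and for H4, ranged from 42.2 to 65.8 CPM and from 28.7 to 69.4 CPM over the 8 libraries. HIST1H1C had log2 changes from -0.49 to 0.092 and HIST1H4I from -0.024 to 0.53 over the 5 comparisons, and neither passed. Over the 35 clustered genes tested, the median log2 change was -0.37 after irradiation in knockdown cells and 0.35 in WT cells, while that of all genes tested was 0.0095 and -0.014. Between knockdown and WT the clustered median was -1.06 in irradiated cells, against -0.00030 for all genes, with 11 of 35 higher and 24 lower. In untreated cells it was -0.085, against -0.011 for all genes, with 16 higher and 19 lower. Setting the 2 genes at 0 in a compared group to a floor of 3 counts over the group left each on the same side of the median. This could not move the medians, and it does not cover other genes with few counts. The direction of the medians with irradiation differed between genotypes, and this difference was not tested.

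**Figure D3:**
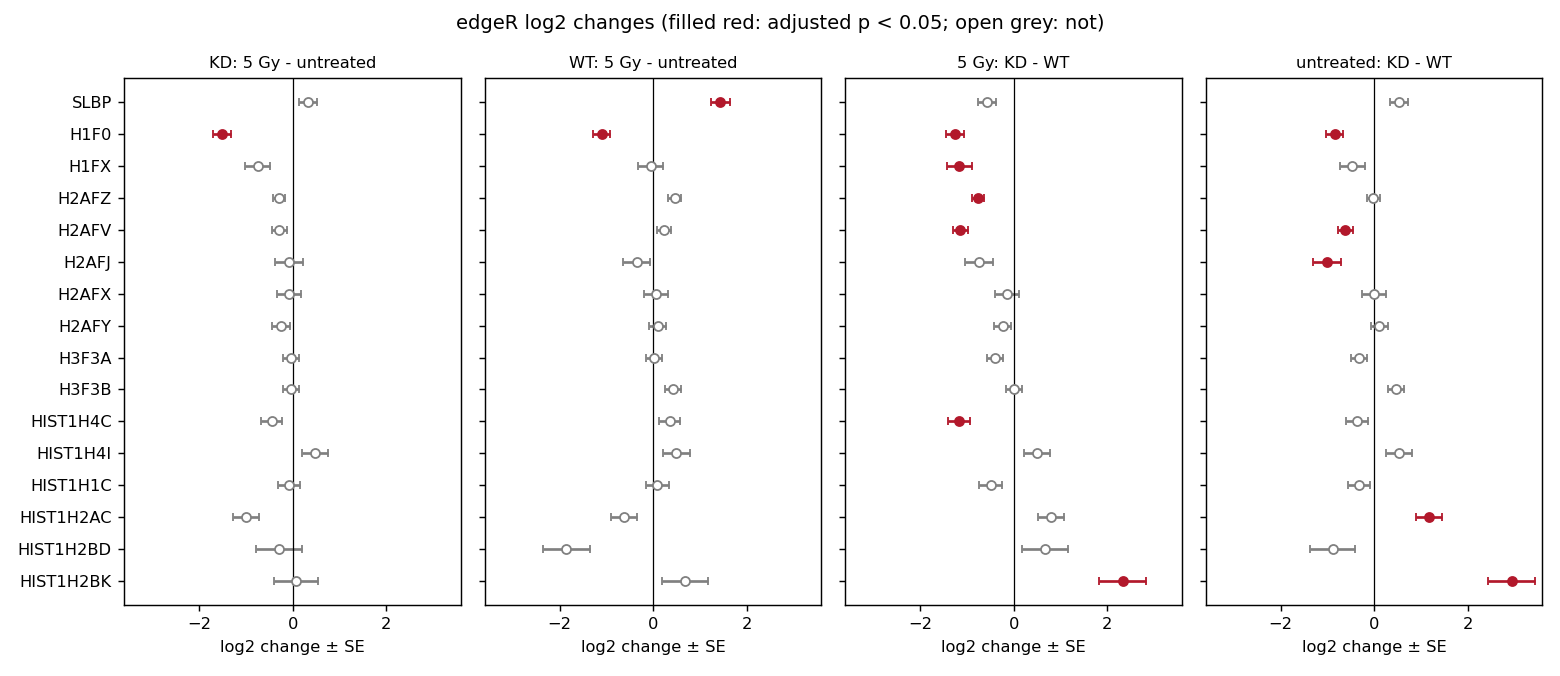
Log2 changes with their SE (edgeR, 2 libraries a group) of 16 members in 4 comparisons, filled red where the adjusted p was under 0.05 and open grey otherwise, KD for knockdown. SLBP stands at 1.43 after 5 Gy in WT cells, H1F0 is below 0 in all 4 panels, and HIST1H2BK is above 2 in the panels that set knockdown against WT.

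Genes that make, process and deposit histones were described from lists. Of 24 tested genes of histone transcription and histone mRNA processing or decay, none passed with irradiation in WT cells by edgeR's quasi-likelihood test. In WT cells 21 were higher and 3 lower, with a median log2 change of 0.35, and 4 had an unadjusted p under 0.05, against 13.9% of all genes. The smallest p-values there were those of CCNE1, cyclin E1, at 1.83 (SE 0.575, adjusted p = 0.138, edgeR) and of LSM11, a part of the U7 particle that cuts histone pre-mRNA, at 2.22 (SE 0.828, adjusted p = 0.221, edgeR). None passed with irradiation in knockdown cells, where 13 were higher, 11 lower and 3 had an unadjusted p under 0.05, against 8.86% of all genes. The smallest p-values in knockdown cells were those of CDK1 at -0.66 (adjusted p = 0.400, edgeR) and of ERI1, an exonuclease that trims histone mRNA, at 0.90 (adjusted p = 0.413, edgeR). The response of knockdown minus that of WT called none of the 24 (2 at an unadjusted p under 0.05, against 9.5% of all genes), with CDK1 at -0.97 (adjusted p = 0.352, edgeR) and LSM11 at -3.08 (adjusted p = 0.415, edgeR). Between knockdown and WT in irradiated cells, 1 of 24 passed (4.17%), against 5.1% of all genes, with 11 higher and 13 lower. It was CDK1, a cell-cycle kinase, which had 136 and 164 CPM in irradiated knockdown, against 343 and 273 CPM in irradiated WT libraries, a log2 change of -1.11 (SE 0.237, adjusted p = 0.0133, edgeR). CCNA2 at -1.02 (adjusted p = 0.140, edgeR) and CDK2 at -0.81 (adjusted p = 0.170, edgeR) came next and did not pass. None of the 24 passed between the untreated groups (5 at an unadjusted p under 0.05, against 23.7% of all genes), with CSTF2, a cleavage factor, at 0.96 (adjusted p = 0.0747, edgeR) and ERI1 at -0.97 (adjusted p = 0.0769, edgeR).

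Of 29 histone chaperones and assembly factors, 3 rose with irradiation in WT cells (10.3%), against 1.65% of all genes called in either direction, with 22 higher, 7 lower and a median log2 change of 0.30. NPM1, a nucleolar chaperone, had 1054 and 982 CPM in irradiated WT, against 662 and 687 CPM in untreated WT libraries (log2 change 0.62, SE 0.121, adjusted p = 0.0234, edgeR). ASF1B, which hands H3 and H4 to the assembly machinery, had 109 and 102 CPM, against 49.9 and 52.2 CPM (1.07, SE 0.221, adjusted p = 0.0301, edgeR). CHAF1B, a subunit of the CAF-1 complex that loads H3 and H4 behind the replication fork, had 39.8 and 81.7 CPM, against 17.4 and 24.4 CPM (1.56, SE 0.346, adjusted p = 0.0371, edgeR). NASP, a carrier of H3 and H4, and SUPT16H, a subunit of FACT, came next at 0.90 and 0.56 and did not pass (adjusted p = 0.0656 and 0.102, edgeR). In knockdown cells none of the 29 passed with irradiation (4 at an unadjusted p under 0.05, against 8.86% of all genes), with ASF1A at -0.77 (adjusted p = 0.350, edgeR) and HJURP at -0.75 (adjusted p = 0.442, edgeR). None passed for the difference between the responses (7 at an unadjusted p under 0.05, against 9.5% of all genes), with ASF1B at -0.998 (adjusted p = 0.294, edgeR) and NASP at -1.02 (adjusted p = 0.307, edgeR). In each genotype comparison 1 of the 29 passed (3.45%), against 5.1% of all genes in irradiated and 9.94% in untreated cells. ASF1B was lower in knockdown than in WT cells after irradiation, with 56.4 and 64.0 CPM in irradiated knockdown libraries (log2 change -0.88, SE 0.220, adjusted p = 0.0314, edgeR). MIS18A at -0.92 (adjusted p = 0.0677, edgeR) and ASF1A at -0.72 (adjusted p = 0.125, edgeR) came next and did not pass. In untreated cells SSRP1, the other FACT subunit, was higher in knockdown, with 137 and 169 CPM, against 107 and 81.6 CPM in WT (log2 change 0.64, SE 0.192, adjusted p = 0.0467, edgeR). DNAJC9 at 1.25 and NPM1 at 0.32 did not pass (adjusted p = 0.0713 and 0.113, edgeR).

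Cell-cycle genes moved in the same comparisons, and their part in the histone and SLBP results was not tested. Of 28 DNA synthesis genes, 28 were higher and 12 passed (42.9%) after irradiation of WT cells, against 1.65% of all genes, with a median log2 change of 1.10. In knockdown cells 21 were higher, with a median of 0.25, and none passed, against 0.225% of all genes. There 5 had an unadjusted p under 0.05, against 8.86% of all genes. The 12 called in WT cells were CLSPN, MCM4, MCM3, CDT1, UHRF1, RRM2, CHAF1B (also on the chaperone list), MCM5, RRM1, FEN1, PCNA and CDC6, with log2 changes from 0.80 for RRM1 to 1.66 for CDT1. Between knockdown and WT in irradiated cells, 26 of these 28 were lower and 3 passed (10.7%), against 5.1% of all genes, with a median of -0.49. Among these, TYMS stood at -1.40 (SE 0.192, adjusted p = 0.000762, edgeR) and E2F1 at -1.25 (SE 0.285, adjusted p = 0.0197, edgeR). Of 25 genes of G2 and mitosis, 24 were lower in irradiated knockdown than in irradiated WT cells, with a median of -0.93, and 6 passed (24.0%), against 5.1% of all genes. With irradiation in knockdown cells 24 were lower and 1 passed (4.0%), against 0.225% of all genes. The 6 were BIRC5, AURKB, CCNB2, KIF20A, UBE2C and TOP2A, with log2 changes from -1.78 for KIF20A to -1.14 for TOP2A, and the 1 was KIF20A at -2.29 (SE 0.436, adjusted p = 0.0415, edgeR). The irradiated WT libraries 1 and 2 differed widely on this list. TOP2A had 715 and 392 CPM there, against 281 and 250 CPM in irradiated knockdown libraries. CCNB1, which was not called, had 514 and 147 CPM, against 208 and 182 CPM, so irradiated WT library 2 was the lowest. Directions on this list therefore lean on irradiated WT library 1 for some genes. In untreated cells 1 of the 28 DNA synthesis genes passed as higher in knockdown and 1 as lower, together 7.14%, against 9.94% of all genes. The higher one was CLSPN at 0.93 (SE 0.257, adjusted p = 0.0321, edgeR). Mitochondrial genes took 10.2% to 11.96% of counts in knockdown and 9.36% to 10.3% in WT libraries.

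For single cells, counts were thinned to 69000 per cell, which 330 cells reached. Those left out were 3 cells in irradiated knockdown, 12 in untreated knockdown, 11 in irradiated WT and 7 in untreated WT libraries. HIST1H4C was counted in all 330 cells, with 2 to 1909 counts. Its distribution had a long upper tail, and the 8 to 12 cells of a library with most of it, out of 33 to 46, held 62.5% to 81.4% of its counts. At the top, HIST1H4C made up 0.752% to 2.77% of all counts of a cell. Median HIST1H4C counts per cell were 67 and 70.5 in irradiated knockdown, 59 and 69 in untreated knockdown, 134 and 95 in irradiated WT and 112 and 60.5 in untreated WT libraries. The irradiated WT medians were above both irradiated knockdown medians. The untreated medians overlapped between genotypes. Unthinned, the median HIST1H4C counts were 387 and 261, 224 and 302, 330.5 and 411.5, and 505.5 and 276.5 per cell in the same order of groups. A cell had counts of a median of 5 or 6 clustered genes, and at most 17.

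**Figure D4:**
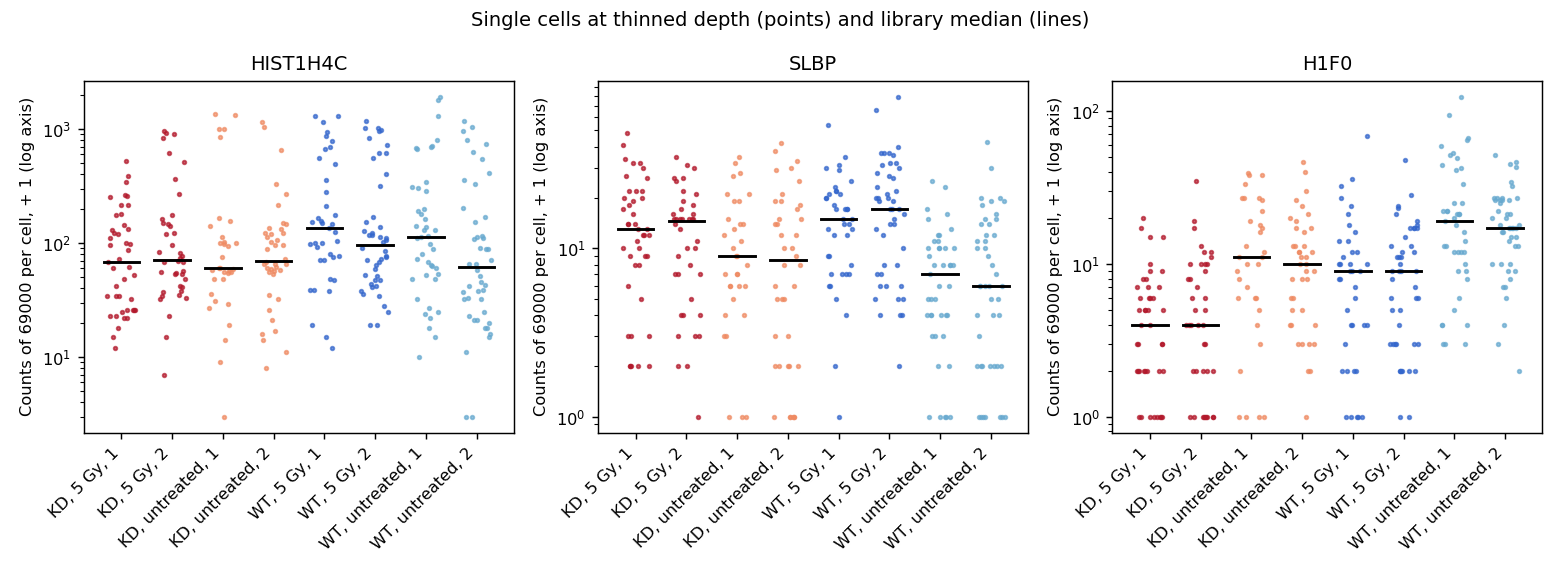
Counts of HIST1H4C, SLBP and H1F0 in single cells thinned to 69000 counts, plus 1 on a log axis, with a point per cell and a line at the median of each library, KD for knockdown. HIST1H4C runs from 2 to 1909 counts, the SLBP medians of 14 and 16 in irradiated WT libraries lie above those of 6 and 5 in untreated WT libraries, and the H1F0 medians are lower after 5 Gy in both genotypes.

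SLBP had a median of 12 and 13.5 counts per cell in irradiated knockdown, against 8 and 7.5 in untreated knockdown libraries, and 14 and 16 in irradiated WT, against 6 and 5 in untreated WT libraries. Its unthinned medians were 76 and 44, against 33 and 34, in knockdown and 26.5 and 44.5, against 31.5 and 22.5, in WT libraries, where depth also differed. H1F0 had medians of 3 and 3 counts in irradiated knockdown, against 10 and 9 in untreated knockdown, and 8 and 8 in irradiated WT, against 18 and 16 in untreated WT libraries. The thinned medians of both genes moved in the same direction as the library levels. HIST1H2BK was counted in 58.1% and 67.5% of irradiated knockdown cells and in 54.5% and 57.5% of untreated knockdown cells, against 20.5% and 10.9% of irradiated WT and 9.30% and 13.0% of untreated WT cells. Unthinned, HIST1H2BK was counted in 61.0% to 79.1% of knockdown and 31.2% to 39.6% of WT cells. With another seed the shares were 62.8% and 72.5% in irradiated knockdown, 48.5% and 52.5% in untreated knockdown, 23.1% and 17.4% in irradiated WT and 23.3% and 17.4% in untreated WT libraries, so that of untreated WT library 1 was 23.3% in place of 9.30%. Thinned to 30000 counts they were 48.8% and 41.9%, 40.5% and 45.5%, 25% and 10.4%, and 4.26% and 6.38% in the same order of groups. Each knockdown share was above each WT share in these 4 settings, and in each of them the exact 95% binomial intervals, which cover counting of cells only, overlapped for at least 1 pair of knockdown and WT libraries.

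Across the cells of a library, HIST1H4C went with the DNA synthesis genes, with a Spearman rho of 0.447 to 0.789 and a median of 0.670 over the 8 libraries (33 to 46 cells each). With the G2 and mitosis genes its rho was 0.402 to 0.735. H2AFZ had 0.609 to 0.819 with the G2 and mitosis genes and 0.36 to 0.719 with the DNA synthesis genes. SLBP had 0.146 to 0.671 with the DNA synthesis genes and 0.0177 to 0.474 with HIST1H4C. The other clustered genes together gave -0.334 to 0.332 with HIST1H4C and -0.296 to 0.119 with the DNA synthesis genes, so their sign differed between libraries. H1F0 gave -0.145 to 0.251 with the DNA synthesis genes. These values describe cells that share a library and a thinned depth, and no p is attached to them.

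**Figure D5:**
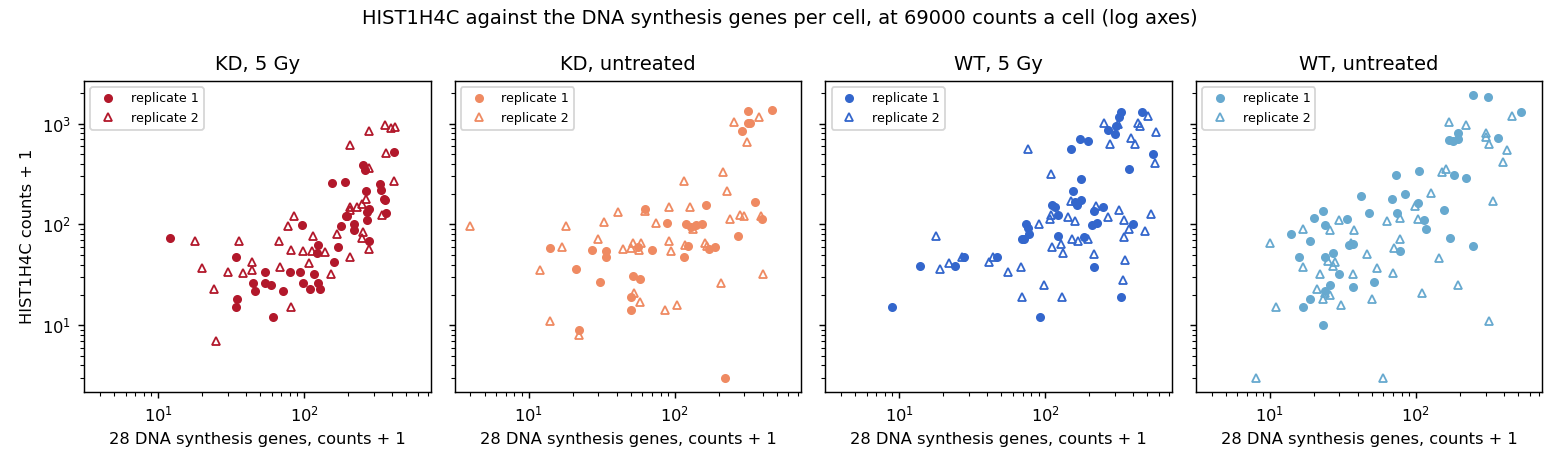
HIST1H4C counts plus 1 against the summed counts plus 1 of 28 DNA synthesis genes in single cells thinned to 69000 counts, on log axes, with a panel per group, filled circles for replicate 1 and open triangles for replicate 2, KD for knockdown. Cells with more DNA synthesis counts tend to have more HIST1H4C (Spearman rho 0.447 to 0.789 within libraries), with exceptions, and cells with few DNA synthesis counts still carry HIST1H4C.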

How the data were processed

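Single MDA-MB-231 cells were isolated by pipette and amplified with a modified Smart-seq2 method into 3′ mRNA libraries, per the labels' protocols. The deposited tables hold whole-number counts per coding gene and cell. Per the submitters' processing notes, Trimmomatic 0.36, HISAT2 2.1.0, HTSeq 0.9.1 and the hg38 build were used. Whether counts are reads or unique molecules, and whether strand was used, is not stated in the sources used here, so intervals cover counting error only. Where a table did not list a gene, 0 was used.

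Cells with at least 1000 genes and 5000 counts were kept, and their counts were summed per library (9321268 to 24256471 counts). Genes passing filterByExpr were scaled by TMM and tested with edgeR 4.0.16 (R 4.3.3) using its quasi-likelihood test on all 4 groups at once, with p-values adjusted by Benjamini-Hochberg across 12456 genes and called at 0.05. The fit was tested on data simulated from its own means and spread, with changes set only in genes at an average log2 CPM of at least 5. That test does not show how well changes in genes with few counts, or counts from few cells, are handled. Positions and stem-loops came from GENCODE 29, in which all 59 identifiers matched with their version. Alternatives were DESeq2's size factors, no scaling, no filter, a filter at an average log2 CPM of 5, DESeq2 1.42.0, limma 3.58.1 on the mean CPM per cell, the compared groups alone, all barcodes, no cells above 2 times the median of their library, and each library left out. For cells, counts were thinned to 69000 with a fixed seed. No cells were identical, cell names carry their library, and doublets were not called since cells were picked singly.

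The members and gene lists were chosen with earlier results of these data known. Named members were SLBP, every member past the threshold, a fixed set of 14 histone genes and the 5 clustered genes with the highest CPM. From the histone transcription and chaperone lists, the genes past the threshold and the 2 next by p were named, and from the cell-cycle lists only genes past the threshold, of which 1 is not reported here.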

Additional observations from a re-analysis of the deposited data

How the results depend on the processing

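Of the 14 member results past the threshold, 6 were past it in every alternative that could be fitted: SLBP with irradiation of WT cells, H1F0 with irradiation of knockdown cells, HIST1H2BK between the untreated genotypes, and H2AFZ, H2AFV and H1F0 between the irradiated genotypes. H1F0 with irradiation of WT cells was lost only in a fit of the compared groups alone (adjusted p = 0.0543, edgeR). The number of members called with irradiation of WT cells was 4 with no filter (against 3.55% of all genes), 5 by DESeq2's Wald test (4.75%) and 1 with the compared groups alone (0.278%), and 2 to 4 with a library left out (0.678% to 2.84%). With irradiation of knockdown cells it was 4 with no filter (1.57% of all genes), 2 by DESeq2 (1.46%), 2 by limma (0.979%), and 1 to 2 with a library left out (0.332% to 1.08%). For the difference between the responses it was 3 with no filter (1.3% of all genes), 3 by DESeq2 (1.13%), and 0 to 3 with a library left out (0.234% to 0.973%), 1 of them without irradiated WT library 1 (SLBP) and 3 without untreated WT library 1 (H2AFZ, HIST1H1E and HIST1H4C). Between the irradiated genotypes it was 11 with no filter (6.95% of all genes) and 11 by DESeq2 (9.09%). With no filter more than the 46 members of the main fit were tested, so those counts are not out of 46. The causes were not tested. Where leaving out a library left 1 in a group, that library was assumed to vary like the other groups.

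Of the 66 named member results that were not called, 14 were called in at least 1 alternative. Direction changed only among results that were not called. With irradiation of WT cells, H3F3A was -0.025 under the higher count filter, and HIST1H1C was -0.19 by limma and -0.55 without cells above 2 times the median. With irradiation of knockdown cells, H2AFX was 0.29 and HIST1H2BD 0.34 without those cells, and H3F3A was 0.19 and H3F3B 0.12 by limma. For the difference between the responses, H2AFX was 0.15, H2AFJ -0.10 and HIST1H1C 0.39 without those cells, H3F3A 0.064, HIST1H1C 0.032 and HIST1H4I 0.29 by limma, and HIST1H4I 0.019 under the higher filter. Between the untreated genotypes, H2AFZ was 0.039 without scaling, 0.037 by limma and 0.065 without those cells. H2AFX there was -0.012 with DESeq2's size factors, -0.013 under the higher filter, -0.012 by DESeq2's Wald test and -0.22 without those cells, and H2AFY was -0.00046 without those cells. Between the irradiated genotypes, H2AFX was 0.021 by limma.

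With each library left out in turn, log2 changes that crossed 0 had these ranges. With irradiation of WT cells they were -0.19 to 0.37 for H2AFX, -0.16 to 0.31 for H2AFY, -0.85 to 0.020 for H2AFJ, -0.17 to 0.20 for H3F3A, -0.39 to 0.22 for H1FX and -0.0094 to 0.19 for HIST1H1C. With irradiation of knockdown cells they were -0.44 to 0.38 for H2AFX, -0.26 to 0.079 for H2AFJ, -0.14 to 0.047 for H3F3A, -0.11 to 0.022 for H3F3B, -0.23 to 0.052 for HIST1H1C, -0.36 to 0.66 for HIST1H2BK and -1.02 to 0.77 for HIST1H2BD. For the difference between the responses they were -0.50 to 0.32 for H2AFX, -0.099 to 0.78 for H2AFJ, -0.24 to 0.13 for H3F3A and -0.26 to 0.25 for HIST1H4I. Between the untreated genotypes they were -0.18 to 0.17 for H2AFZ, -0.46 to 0.36 for H2AFX, -0.018 to 0.25 for H2AFY and -0.67 to 0.0025 for HIST1H4C. Between the irradiated genotypes they were -0.31 to 0.018 for H2AFX, -0.45 to 0.027 for H2AFY, -0.26 to 0.36 for H3F3B and -0.049 to 1.16 for HIST1H2BD.

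Without their highest member, the clustered sums averaged 299.9 CPM in irradiated knockdown, 374 in untreated knockdown, 311 in irradiated WT and 318 CPM in untreated WT libraries, and the replacement sums 1956, 2221, 2293 and 2166 CPM in the same order. Without cells above 2 times the median, the replacement sum was 3474 CPM in untreated knockdown and 3819 CPM in irradiated WT libraries, and as a mean over cells it was 3429 and 3964 CPM. Over all genes, the other scalings shifted the median by at most 0.0649 on the log2 scale. No paired analysis was made because the labels carry no replicate numbers that groups share. TOP2A, of the G2 and mitosis list, had 715 and 968 CPM in library 1 of irradiated and untreated WT cells. In library 2 of these groups it had 392 and 388 CPM. Whether WT libraries shared a batch or a pairing was not tested. Of the 47 clustered genes, 12 did not pass the filter on low counts, and the cause was not tested. Of 72 shares of cells, 8 moved beyond their interval under another seed, depth or no thinning.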
